A study of Mus musculus with 4 samples.

Results

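The core circadian clock of mouse prefrontal cortex (PFC) was followed through 10 genes, chosen by name: the activators Arntl, Clock and Npas2, the repressors Per1, Per2, Per3, Cry1 and Cry2, and the clock-controlled genes Dbp and Nr1d2. These are 10 of the 29281 genes listed in any of the deposited tables, and each of the 10 had UMIs in every library. In the clock, BMAL1 (the product of Arntl) pairs with CLOCK or NPAS2, binds E-box sequences and turns on Per and Cry genes, whose products then block the pair. A second loop runs through REV-ERB repressors such as the product of Nr1d2, which act on ROR elements of Arntl, and D-box factors such as DBP carry the rhythm to further genes. In brain, many but not all of these transcripts rise and decline over the day, Arntl out of phase with Dbp, and in some cells Per1 and Per2 also respond to neuronal activity and to glucocorticoids.

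The study asked how cell types and their transcripts change in the PFC after birth. Cells of C57BL/6 mice were captured by BD Rhapsody 3′ whole transcriptome sequencing at postnatal days 1, 4, 10 and 84 (P1, P4, P10 and adult), with 1 library per age. By the methods, 2 female mice were used per age, all were kept under alternating light and dark, and slices were cut after anesthesia on ice and held in Actinomycin D, a transcription blocker, before protease digestion. No map ties cells to mice and the hour of dissection is not given in the sources used here. Each age is therefore 1 sample with no replicate check, no test between ages was made, and age and time of day cannot be told apart. Classes of cells within 1 library, in contrast, were collected together, from mice whose hours of dissection are not given. They could still differ in the timing of their rhythms, which was not tested.

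The P1 library stands apart from the other 3. Its file was made by another pipeline version and on Enhanced beads, its header calls the library P0 and leaves intronic reads in the counts, which the later headers leave unstated, and 4 Y-linked genes reached 120.5 CPM there against 0.126, 0.126 and 0.190 CPM at P4, P10 and in adult, although all mice are described as female. Ages are therefore compared from P4 to adult, and P1 is given beside them. The filter stated in the methods left 11545, 19014, 15272 and 14087 cells in order of age, P1 first, with median depths of 11065 to 25800 UMIs per cell, and of the cell barcodes 319 to 368 were shared by each pair of the 3 later libraries and 12 to 20 by P1 and another.

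Cells were clustered within each library without the 10 genes, and a cluster was named X-like where it met the rule on its marker genes. Intratelencephalic (IT)-like cells, the neurons that project within the telencephalon, numbered 2284, 3487, 4443 and 4081 at P1, P4, P10 and in adult. Astrocyte-like cells numbered 148, 1469, 1994 and 1717, inhibitory-like neurons 1712, 3069, 1987 and 1409, and oligodendrocyte precursor (OPC)-like cells 155, 795, 1047 and 525. The marker lists bear these names out only in part at P4, where glutamatergic markers in astrocyte-like cells stood at 36.9% of their level in IT-like cells and Scrublet, a doublet caller, marked 21.2% of the cluster. Without the marked cells that level was 12.6%, against 13.1% at P10 and 17.2% in adult with all cells. At P1 it was 15.8%, and 2.54% without marked cells. Glutamatergic cells without a clear class, 22.9% of cells at P1 and 22.4% at P4, stayed unnamed.

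Levels are CPM, the UMIs of a gene summed over the cells of a class and scaled to the class total, from which mitochondrial and ribosomal protein genes were left out. Values in order of age run from P1 over P4 and P10 to adult. Parentheses hold 95% intervals, exact for Poisson counts or, for log2 ratios of CPM, by the conditional binomial. They cover counting error only.

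On GRCm38, with the GENCODE vM21 annotation, all 10 are protein-coding. Arntl lies at chr7:113207465-113314126, Clock at chr5:76209868-76304792, Npas2 at chr1:39193731-39363236, Per1 at chr11:69095217-69109960, Per2 at chr1:91415982-91459324 and Per3 at chr4:151003652-151044665. Cry1 lies at chr10:85131700-85185064, Cry2 at chr2:92403646-92434043, Dbp at chr7:45705088-45710203 and Nr1d2 at chr14:18204054-18239127. Per3 shares bases with Camta1 on the same strand, Dbp with Sphk2, Arntl with Gm45355 and Cry2 with D930015M05Rik on the other strand, and Clock and Npas2 with pseudogenes. UMIs of such neighbours could be counted to a member, and the strand setting of the counting is not given in the sources used here.

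RefSeq promoter windows (GRCm38.p6, 250 bases before to 50 after a start) were at hand for 9 of the 10 genes, not for Per2, in 13 windows. They were searched on both strands for the E-box CACGTG, the E-prime box CACGTT, the D-box as TTATGTAA or TTATGCAA, and the ROR element TAGGTCA. The 4 stretches printed here, the 250 bases before the start, are those of the repressors with a match, so that a reader can see where the letters of the loop stand in them. Capitals mark the matches, and the E-prime box reads AACGTG where it lies on the reverse strand.
Per1, chr11:69098699-69098948, plus strand: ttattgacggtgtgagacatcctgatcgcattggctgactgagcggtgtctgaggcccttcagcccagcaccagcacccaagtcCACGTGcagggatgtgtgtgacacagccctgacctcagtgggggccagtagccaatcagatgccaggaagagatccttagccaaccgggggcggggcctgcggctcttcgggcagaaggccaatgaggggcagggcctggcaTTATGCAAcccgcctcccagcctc
Per3, chr4:151044666-151044915, minus strand: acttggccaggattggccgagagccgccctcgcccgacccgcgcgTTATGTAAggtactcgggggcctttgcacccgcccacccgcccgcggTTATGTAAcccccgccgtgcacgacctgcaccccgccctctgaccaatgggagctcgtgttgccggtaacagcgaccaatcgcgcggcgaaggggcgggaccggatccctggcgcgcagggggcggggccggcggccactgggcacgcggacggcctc
Cry1, chr10:85185055-85185304, minus strand: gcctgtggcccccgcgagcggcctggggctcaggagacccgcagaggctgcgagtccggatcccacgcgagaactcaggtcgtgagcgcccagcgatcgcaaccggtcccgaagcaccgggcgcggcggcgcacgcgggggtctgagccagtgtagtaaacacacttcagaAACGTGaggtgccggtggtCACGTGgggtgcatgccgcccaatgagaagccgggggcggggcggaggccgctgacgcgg
Cry2, chr2:92434070-92434319, minus strand: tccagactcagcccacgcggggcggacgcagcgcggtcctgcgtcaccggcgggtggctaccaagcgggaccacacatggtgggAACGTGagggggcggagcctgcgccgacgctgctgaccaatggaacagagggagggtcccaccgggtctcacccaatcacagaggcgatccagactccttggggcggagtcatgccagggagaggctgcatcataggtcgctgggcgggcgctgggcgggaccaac
In Per1 the E-box stood 166 to 161 bases before the start and a D-box 24 to 17 bases before it. Per3 held 2 D-boxes, at 205 to 198 and 158 to 151 bases before the start, and no E-box in this window. In Cry1 the E-box stood at 60 to 55 bases and the E-prime box at 79 to 74 bases before the start, and Cry2 held an E-prime box at 166 to 161 bases. The only other match was a ROR element in the second Arntl window, after the transcription start. Of 32851 mouse windows of the same length, 7.15% held CACGTG, 4.68% CACGTT, 0.938% TTATGTAA, 0.743% TTATGCAA and 2.61% TAGGTCA. The letters are a description, and no binding was measured.

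**Figure D1:**
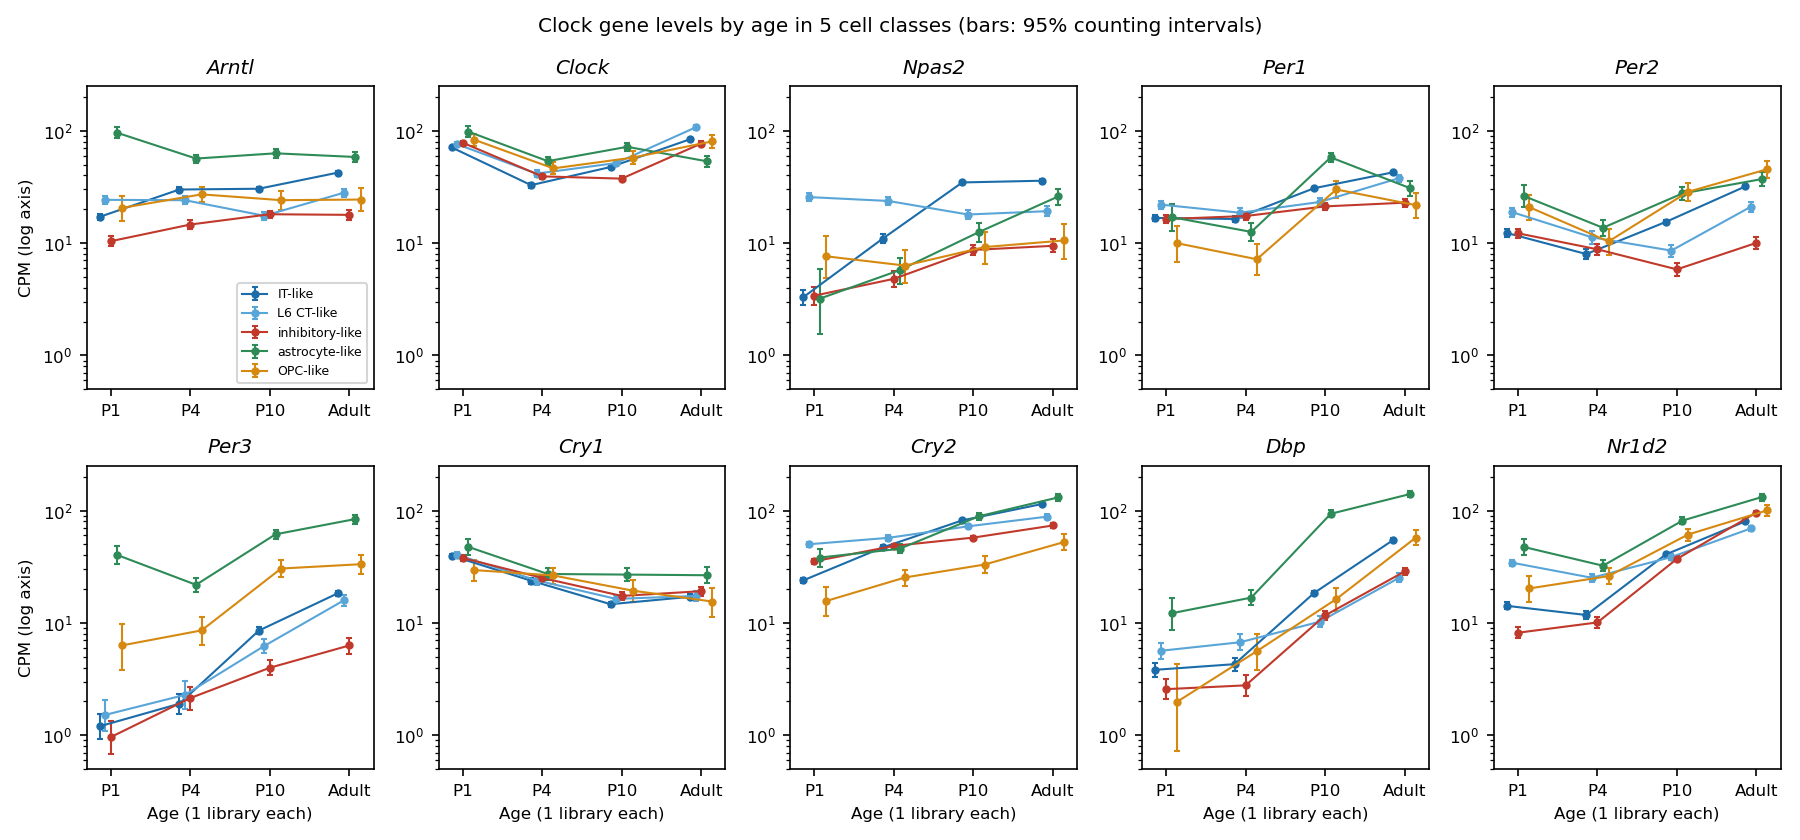
Levels of the 10 clock genes (CPM, log axis) in 5 cell classes at P1, P4, P10 and in adult, 1 library per age, with 95% counting intervals as bars. Dbp, Nr1d2 and Per3 are higher in adult than at P4 in all 5 classes, Cry1 in none, and the astrocyte-like line lies highest for Arntl, Per3 and Dbp at each age.

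Arntl, which encodes the shared partner of both activator pairs, was highest in astrocyte-like cells in 4 of 4 libraries, 3 of 3 without P1. Its adult interval there overlapped that of endothelial-like cells, the next class. In IT-like cells it stood at 17.1 CPM (16.0 to 18.3), 30.0 (28.4 to 31.5), 30.4 (29.4 to 31.5) and 42.4 (41.0 to 43.9) in order of age, and adult over P4 gave a log2 ratio of 0.50 (0.41 to 0.59). In astrocyte-like cells it was at 96.3 CPM (85.7 to 108), 56.5 (51.9 to 61.4), 62.9 (57.6 to 68.6) and 58.4 (52.3 to 65.0) in order of age, where the 3 later intervals overlap. Inhibitory-like neurons held less than either class, at 10.4, 14.6, 18.1 and 17.8 CPM in order of age. Of 9 classes found at both P4 and adult, 5 had more Arntl in adult with an interval clear of 0, none had less, and the ratios spanned -0.17 in L5 near-projecting (NP)-like to 1.16 in endothelial-like cells. Without marked doublets the astrocyte-like ratio was -0.25 (-0.47 to -0.03), a lower adult level.

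Clock, the partner of BMAL1 in most tissues, spanned 53.5 to 114 CPM over the 11 adult classes. IT-like cells held 71.1 CPM (68.8 to 73.4), 32.8 (31.2 to 34.4), 47.5 (46.2 to 48.8) and 83.9 (81.9 to 86.0) in order of age. P4 was thus the lowest age, and P4 lay below P1 in 8 of 8 classes, a step that also separates the pipeline versions, whose part was not tested. Whether intronic reads were counted in the 3 later files is not given in the sources used here. From P4 to adult Clock was higher in 8 of 9 classes with an interval clear of 0, by 1.36 on the log2 scale (1.28 to 1.44) in IT-like cells and 1.37 (1.25 to 1.48) in L6 corticothalamic (CT)-like cells. The exception was the astrocyte-like class, with 53.6 CPM (49.1 to 58.4) at P4 and 53.5 (47.6 to 59.8) in adult. Its adult level was the lowest of the 11 classes, with an interval that overlaps the microglia-like one. Without marked doublets the astrocyte-like levels at P4 and in adult were 66.1 (59.5 to 73.3) and 51.8 (46.0 to 58.2), a log2 ratio of -0.35 (-0.58 to -0.12). At P10 the astrocyte-like class held 71.9 CPM (66.2 to 78.0).

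Npas2, a CLOCK relative expressed mainly in forebrain, was highest in a glutamatergic class in each library, L6 CT-like at P1 and P4, L6b-like at P10 and IT-like in adult. In IT-like cells its level was 3.30 CPM (2.82 to 3.83), 11.0 (10.1 to 11.9), 34.6 (33.5 to 35.8) and 35.9 (34.6 to 37.2) in order of age, so that the P10 and adult intervals overlap. L6 CT-like cells, with 25.7 CPM, 23.7, 18 and 19.2 in order of age, started highest and ended lower, with a log2 ratio of adult over P4 of -0.30 (-0.50 to -0.11) against 1.71 (1.58 to 1.85) in IT-like cells. L6b-like cells, found only at P10, had the highest P10 level, 43.3 CPM (37.5 to 49.7). Astrocyte-like cells held 3.21, 5.73, 12.5 and 26.0 CPM. Their P4 value depended on marked doublets. Without these cells Npas2 stood at 1.63 CPM (0.748 to 3.10), and the log2 ratio of adult over P4 went from 2.18 (1.73 to 2.65) to 4.0, and to 4.79 with clusters made at resolution 1.0.

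Per1 and Per2, whose products form the repressor complex with CRY, were both higher in adult than at P4 in 8 of 9 classes with an interval clear of 0. The microglia-like Per2 level at P4 rested on 1 UMI. Per1 in IT-like cells was at 16.7 CPM (15.6 to 17.9), 16.4 (15.3 to 17.6), 30.8 (29.7 to 31.8) and 42.7 (41.2 to 44.2) in order of age, and adult over P4 gave a log2 ratio of 1.38 (1.27 to 1.5). The astrocyte-like course had another shape, with 17.0 CPM (12.7 to 22.2), 12.6 (10.5 to 15), 57.9 (52.8 to 63.4) and 30.8 (26.4 to 35.7). There P10 was the highest age, and OPC-like cells showed the same order with 9.96, 7.18, 30.0 and 21.8 CPM. From P10 to adult the Per1 log2 ratio was -0.91 (-1.17 to -0.66) in astrocyte-like and 0.47 (0.40 to 0.54) in IT-like cells.

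Per2 was lowest at P4 in IT-like cells, with 12.3 CPM (11.4 to 13.3), 7.98 (7.21 to 8.82), 15.4 (14.7 to 16.2) and 31.9 (30.6 to 33.2) in order of age, and adult over P4 gave a log2 ratio of 2.0 (1.84 to 2.16). Inhibitory-like neurons differed from this, at 12.2, 8.80, 5.83 and 10.03 CPM, with a ratio of 0.19 (-0.06 to 0.44) whose interval includes 0. Per2 at P4 lay below P1 in 8 of 8 classes with intervals clear of 0. As for Clock, this step also separates the pipeline versions, whose part was not tested. The highest adult Per2 was found in OPC-like cells, 45.5 CPM (38.2 to 53.7), followed by astrocyte-like cells with 37.1 (32.3 to 42.5) and IT-like cells with 31.9, and neighbours in this order overlap in their intervals.

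Per3, a period gene that is less needed for rhythm than the other two, had the largest astrocyte-like over IT-like ratio of the 10 members in every library. Astrocyte-like cells held 40.4 CPM (33.7 to 48.1), 21.8 (19.0 to 24.9), 61.4 (56.2 to 67.1) and 83.9 (76.5 to 91.8) in order of age. IT-like cells held 1.20 CPM (0.922 to 1.54), 1.91 (1.54 to 2.34), 8.54 (8.0 to 9.11) and 18.4 (17.5 to 19.4), and inhibitory-like neurons 0.965, 2.15, 3.99 and 6.30. At no age does any neuronal class reach the astrocyte-like level. Adult lay above P4 in 9 of 9 classes with intervals clear of 0, by log2 ratios of 1.18 in L5 pyramidal tract (PT)-like to 3.92 in L5 NP-like cells. Without marked doublets the P4 astrocyte-like level was 32.5 CPM (27.9 to 37.6). The P4 microglia-like level then rested on 2 UMIs and the P4 L5 NP-like level on 9.

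Cry1 was the member with the opposite direction. Its level in IT-like cells was 39.6 CPM (37.9 to 41.4), 23.7 (22.4 to 25.2), 14.7 (14.0 to 15.4) and 17.1 (16.2 to 18) in order of age, and adult over P4 gave a log2 ratio of -0.48 (-0.59 to -0.36). Adult lay below P4 with an interval clear of 0 in 6 of 9 classes and above it in none, and the largest difference among neurons was in L5 PT-like cells, with 27.6 CPM (25.8 to 29.4) at P4 and 11.6 (10.04 to 13.4) in adult, a ratio of -1.25 (-1.48 to -1.02). Astrocyte-like cells held 27.3, 26.9 and 26.6 CPM at P4, P10 and in adult, with a ratio of -0.04 (-0.33 to 0.26). Cry1 at P4 lay below P1 in 7 of 8 classes with intervals clear of 0. That step also separates the pipeline versions, whose part was not tested.

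Cry2, the other cryptochrome, was higher in adult in most of the same classes. In IT-like cells it stood at 23.9 CPM (22.6 to 25.3), 47.0 (45 to 48.9), 81.8 (80.1 to 83.5) and 114 (112 to 117) in order of age, each age above the one before. Astrocyte-like cells held 38.2, 45.7, 89.0 and 131 CPM, the last (122 to 141) being the highest level of any adult class. OPC-like cells held less at every age, with 15.6, 25.4, 33.1 and 52.4 CPM. Microglia-like cells, the immune cells of the brain, were at 39.7 (26.6 to 57), 18.6 (14.0 to 24.2) and 18.6 (14.6 to 23.4) at P4, P10 and in adult, the lowest adult Cry2 of 11 classes, and were the 1 class of 9 with an adult level below P4. Only 77 microglia-like cells were found at P4, and Scrublet marked 29.9% of them. Without marked cells the P4 level rested on 8 UMIs, 24.0 CPM (10.4 to 47.3), and overlapped the adult one, 18.7 (14.7 to 23.5).

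Dbp, a PAR bZIP factor that is a direct output of the clock, had the largest adult-over-P4 ratio of the 10 members in IT-like, L5 PT-like, inhibitory-like and OPC-like cells. In astrocyte-like cells its ratio was also the largest, 3.06, but without marked doublets Npas2 had 4.0 and Dbp 2.72. In IT-like cells it was at 3.82 CPM (3.31 to 4.40), 4.29 (3.73 to 4.92), 18.4 (17.6 to 19.3) and 54.9 (53.3 to 56.6) in order of age, 12.8-fold higher in adult than at P4. The astrocyte-like values were 12.2 CPM (8.63 to 16.7), 16.8 (14.3 to 19.5), 93.5 (87.0 to 100.3) and 140.4 (131 to 150.4), an 8.36-fold difference from P4 to adult. Inhibitory-like neurons held 2.57, 2.78, 11.7 and 28.7 CPM and OPC-like cells 1.99, 5.6, 16.3 and 57.4. P1 and P4 intervals overlap in IT-like, inhibitory-like and astrocyte-like cells, and the differences there lay between P4 and P10 and again between P10 and adult. OPC-like cells had more at P4 than at P1, by a log2 ratio of 1.49 with an interval clear of 0, but their P1 level rested on 6 UMIs. All 9 classes had more Dbp in adult than at P4 with intervals clear of 0, from 1.71 on the log2 scale in microglia-like to 4.04 in L5 PT-like cells. The microglia-like P4 level rested on 4 UMIs, and without marked doublets on 1 UMI, 3.00 CPM (0.0759 to 16.7).

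Nr1d2, which encodes REV-ERB beta, followed Dbp. In IT-like cells its level was 14.2 CPM (13.2 to 15.3), 11.8 (10.8 to 12.8), 40.6 (39.4 to 41.9) and 80.0 (78.0 to 82.0) in order of age, and adult over P4 gave a log2 ratio of 2.77 (2.64 to 2.89). In inhibitory-like neurons it went from 8.18 and 10.1 CPM to 37.1 and 95.8 (92.0 to 99.8), so that adult inhibitory-like neurons exceeded adult IT-like cells in this gene alone among Dbp, Nr1d2 and the 3 Per genes. Astrocyte-like cells held 47.5, 32.3, 81.4 and 132 CPM. All 9 classes again had more in adult than at P4.

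**Figure D2:**
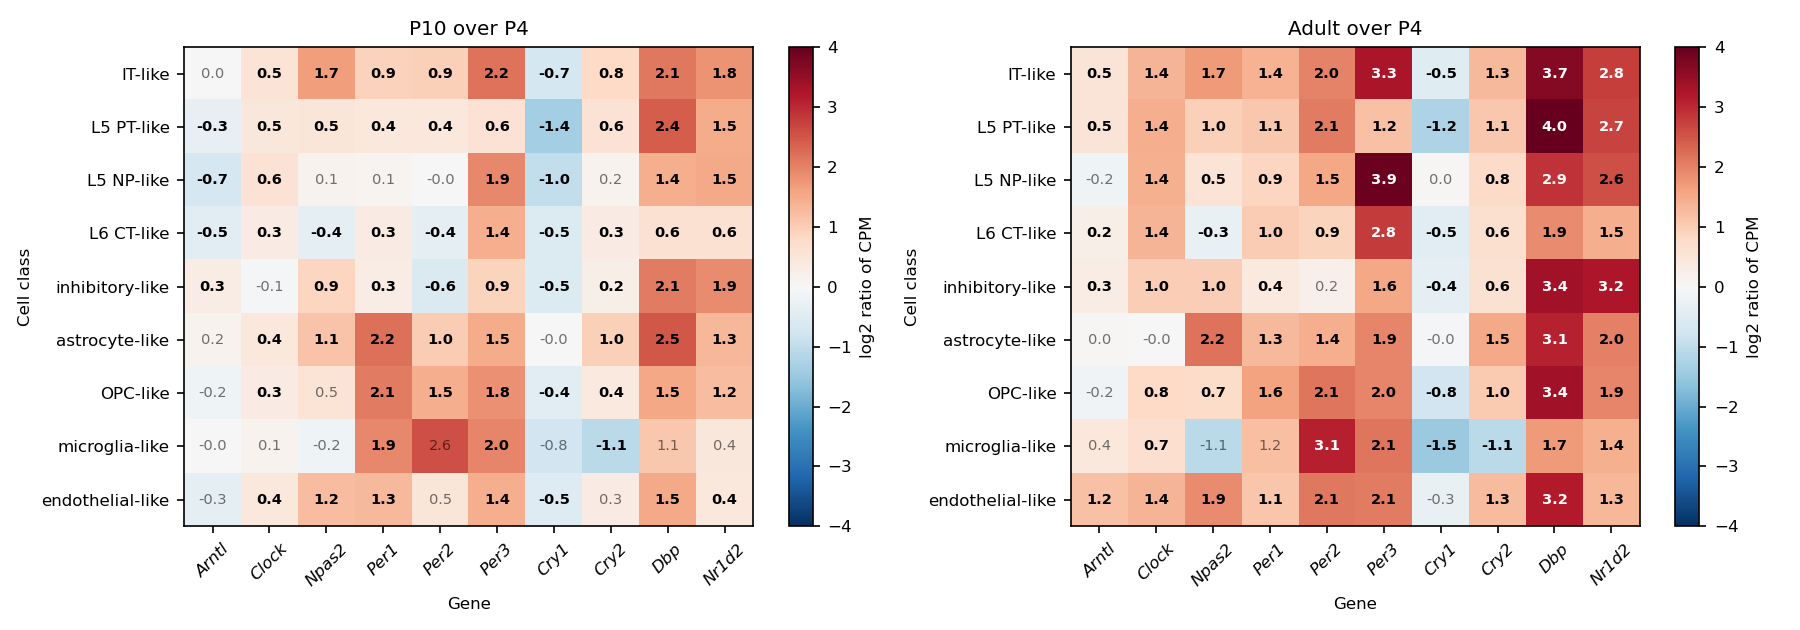
Log2 ratios of CPM for each class (rows) and clock gene (columns), P10 over P4 and adult over P4, with bold values where the 95% counting interval is clear of 0. Adult over P4 is positive and bold in every class for Dbp, Nr1d2 and Per3, and Cry1 has no positive bold value.

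Counted over the members, 8 of 10 were at least 2-fold higher in adult than at P4 in IT-like cells, where 19.4% of all genes with at least 50 UMIs in the 2 sums were. The share at least 2-fold lower was 21.0% of genes and 0 of 10 members, and the exceptions on the higher side were Arntl and Cry1. In astrocyte-like cells 7 of 10 members were at least 2-fold higher, beside 11.2% of genes, and 0 were lower, beside 18.7%. In OPC-like cells the count was 6, beside 11.1% of genes higher and 9.71% lower. Inhibitory-like neurons had 3 such members, Per3, Dbp and Nr1d2, beside 15.5% of genes higher and 19.4% lower. With scaling by the median of ratios the inhibitory-like count was 5. The median of the 10 log2 ratios of adult over P4 was 1.55 in IT-like, 0.79 in inhibitory-like, 1.48 in astrocyte-like and 1.32 in OPC-like cells, while the median of all genes was -0.12, -0.16, -0.23 and -0.05, so that a ratio read against that median is higher by these amounts.

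The adult-over-P1 ratios, which span the pipeline versions, had the same direction as those over P4 for part of the list. Per1, Per3, Cry2, Dbp and Nr1d2 were higher in adult than at P1 in 7 of 7 classes with intervals clear of 0, and Cry1 was lower in 7 of 7. Clock was higher in 3 and lower in 1 of 7 classes, where it had been higher than P4 in 8 of 9, and its IT-like level was 83.9 CPM in adult against 71.1 at P1.

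Within a library, whose classes were collected together at hours not given, astrocyte-like cells were set against IT-like cells. Without a series of hours, a class difference cannot be told apart from a difference in the timing or size of a daily rhythm. Arntl, Per2, Per3, Cry1, Dbp and Nr1d2 were higher in astrocyte-like cells in 4 of 4 libraries with intervals clear of 0, and so in 3 of 3 without P1. The Per3 log2 ratio was 5.07 (4.62 to 5.53), 3.52 (3.16 to 3.88), 2.85 (2.69 to 3.01) and 2.19 (2.03 to 2.34) in order of age. For Dbp it was 1.67 (1.13 to 2.18), 1.97 (1.67 to 2.27), 2.34 (2.22 to 2.46) and 1.35 (1.24 to 1.46), and for Arntl 2.49, 0.92, 1.05 and 0.46. With clusters made at resolution 1.0 the Per3 ratio was 4.37 (4.02 to 4.74) at P1 and 4.19 (3.86 to 4.52) at P4, where the intervals overlap, and the Arntl ratio at P1 was 1.85. The Cry1 ratio was the least firm of the 6, with 0.20 (0.00 to 0.39) at P4, and it turned to -0.07 with clusters made at resolution 1.0 and to -0.12 with unnamed glutamatergic clusters counted as IT-like.

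**Figure D3:**
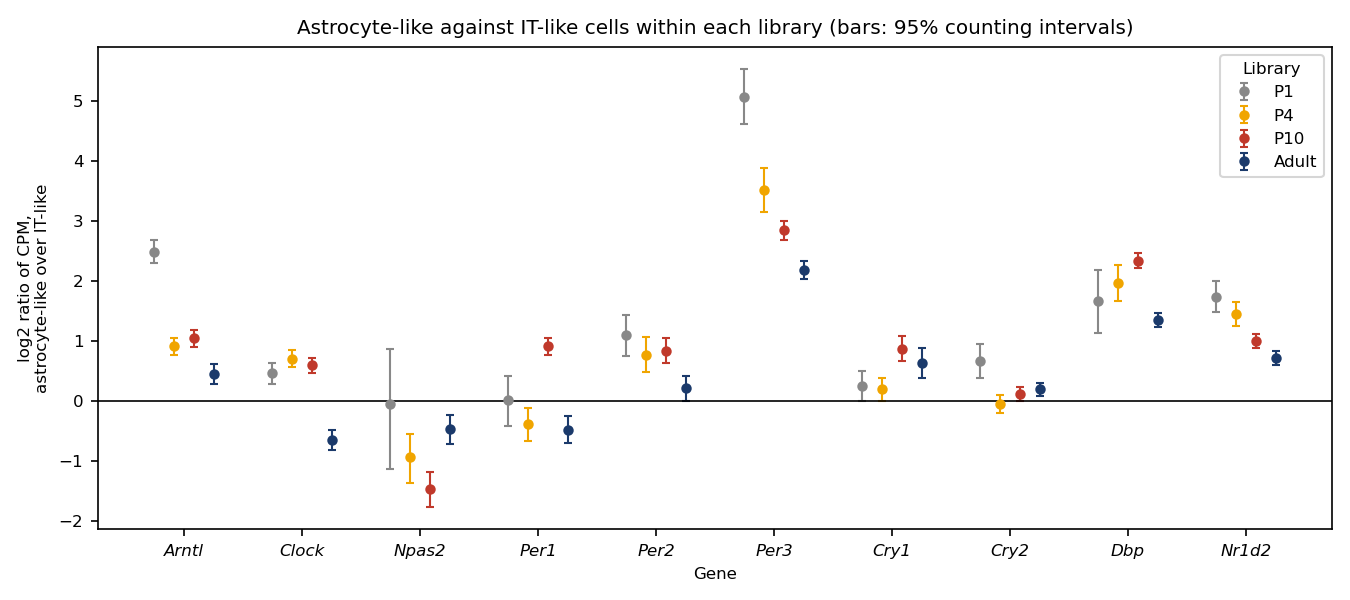
Log2 ratio of CPM in astrocyte-like over IT-like cells for each clock gene in the P1, P4, P10 and adult libraries, with 95% counting intervals as bars and a line at 0. Per3 has the largest ratio in each of the 4 libraries, from 5.07 at P1 to 2.19 in adult, and Npas2 lies below 0, with a P1 interval that spans 0.

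Npas2 was lower in astrocyte-like than in IT-like cells at P4, P10 and in adult, by log2 ratios of -0.94 (-1.36 to -0.54), -1.47 (-1.76 to -1.18) and -0.46 (-0.71 to -0.22), and its P1 ratio of -0.04 (-1.13 to 0.87) was not resolved at this depth. Without marked doublets the P4 ratio was -2.69, and at resolution 1.0 it was -3.88. Clock turned between libraries, from 0.71 (0.57 to 0.85) at P4 and 0.60 (0.47 to 0.72) at P10 to -0.65 (-0.82 to -0.48) in adult. The Per1 ratio was below 0 at P4, -0.38 (-0.67 to -0.11), and in adult, -0.47 (-0.70 to -0.25), but 0.91 (0.77 to 1.05) at P10.

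Members at least 2-fold higher in astrocyte-like than IT-like cells numbered 5 at P1, beside 22.4% of genes, 3 at P4, beside 19.4%, 4 at P10, beside 24.2%, and 2 in adult, Per3 and Dbp, beside 23.0%. Members at least 2-fold lower numbered 0 at P1, P4 and in adult, beside 14.1%, 8.48% and 23.4% of genes, and 1 at P10, Npas2, beside 24.6%. The adult share of members is thus near that of all genes. At P4 the higher count was 5 without marked doublets and at P10 it was 2 with scaling by the median of ratios.

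Inhibitory-like neurons lay below IT-like cells in Arntl and Dbp in 4 of 4 libraries with intervals clear of 0. The Arntl log2 ratios were -0.72, -1.03, -0.75 and -1.25 in order of age and those of Dbp -0.57, -0.63, -0.66 and -0.94. For Dbp this did not hold in all 4 libraries in the inhibitory-like clusters named from markers of the caudal ganglionic eminence (CGE), an origin of part of the cortical interneurons. At P10 these 721 cells held 22.8 CPM against 18.4 in IT-like cells, a log2 ratio of 0.31 (0.12 to 0.49). At P1 and P4 the direction was not resolved, with 24 Dbp UMIs in each library. In adult the ratio was -1.21 (-1.51 to -0.93), but the adult set is not made up like those of the other ages. It held 327 cells and left out the cluster led by Npy, described below, which got no name of origin. In the clusters named from medial ganglionic eminence markers Dbp was lower in 4 of 4 libraries. At P1, P4 and P10 both sets together made up the whole inhibitory-like class. Arntl was lower in both sets of clusters in 4 of 4. In the P10 and adult libraries Clock, Npas2, Per1, Per2, Per3 and Cry2 were lower as well, and Npas2 the most, by -2.0 (-2.16 to -1.84) at P10 and -1.92 (-2.13 to -1.73) in adult. Clock in CGE-like cells was not resolved from IT-like cells, with -0.02 in both libraries. OPC-like cells held more Per3 and Nr1d2 and less Cry2 than IT-like cells in 4 of 4 libraries, with Per3 ratios of 0.85 to 2.39 and Cry2 ratios of -1.31 to -0.62.

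Within the classes, clusters differed too. Adult inhibitory-like neurons fell into 4 clusters, and Dbp stood at 15.4 CPM in the 467 cells led by Sst, 24.7 in the 460 led by Tac1 and Pvalb, 23.7 in the 327 led by Vip and 94.1 in the 155 led by Npy, Gad2, Gad1, Kit and Sv2c. The last cluster lay above the adult IT-like clusters too, which held 49.4 to 67.8 CPM. Its Nr1d2 level of 113 CPM was matched by the Tac1 and Pvalb cluster with 117, and its Arntl of 27.3 CPM stood above 15.5 to 21.1 in the other 3. At P10 the cluster led by Vip held 22.8 CPM of Dbp against 7.08 in that led by Tac1 and 6.61 in that led by Sst.

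**Figure D4:**
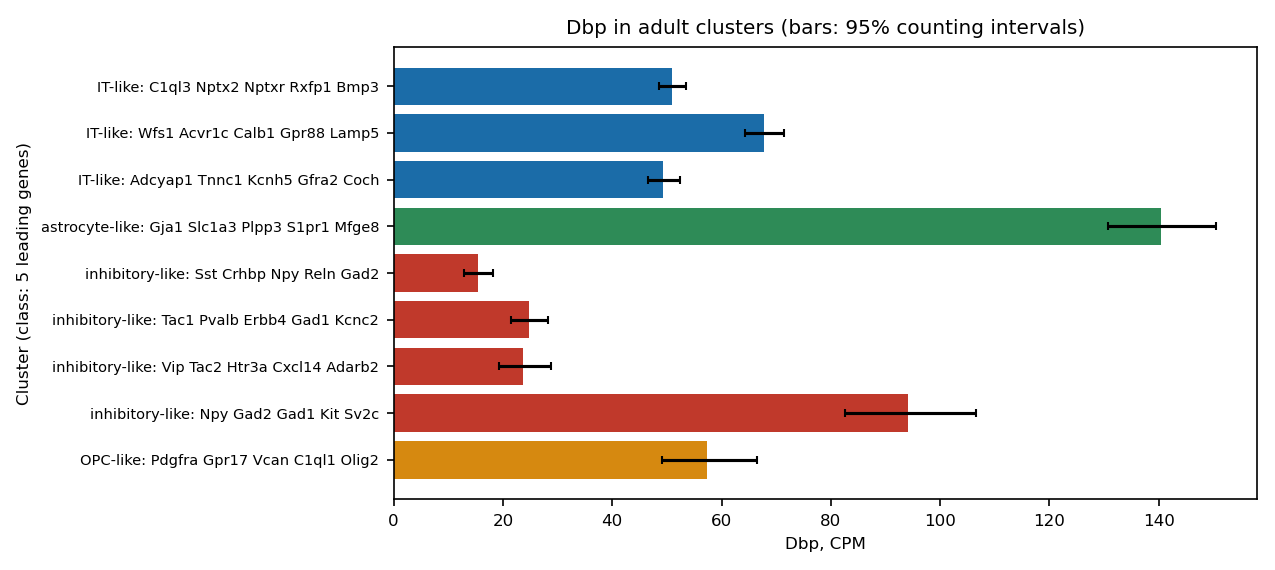
Dbp level (CPM) in each adult cluster of the IT-like, astrocyte-like, inhibitory-like and OPC-like classes, with 95% counting intervals as bars and the 5 leading genes of a cluster as its label. The astrocyte-like cluster is highest with 140.4 CPM, and 1 inhibitory-like cluster, led by Npy and Gad2, lies above the other inhibitory-like clusters.

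IT-like clusters differed in the activators at P4. The 1802 cells led by Slc30a3 had 37.4 CPM of Arntl, 14.7 of Npas2 and 18.3 of Cry1, and the 1685 cells led by Zbtb20 had 15.2, 3.54 and 34.6. Clusters of the later ages still differed in Npas2, with 57.2 CPM in the P10 cluster led by Vegfd and Oprk1 against 32.4 and 26.3 in the other 2, and in Cry1, with 24.1 in the P10 cluster led by Aldh1a3 against 8.69 and 11.2. In adult the cluster led by Wfs1 had 24.6 CPM of Cry1 against 12.3 and 17.4 in the others. Dbp in the 3 adult IT-like clusters was 51.0, 67.8 and 49.4 CPM.

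The ratio of Dbp to Arntl UMIs, a pair with opposite phases in a running clock, needs no scaling by library. Over all cells it was 0.163 (0.153 to 0.174), 0.172 (0.161 to 0.183), 0.732 (0.705 to 0.760) and 1.37 (1.32 to 1.41) in order of age. In IT-like cells it went from 0.223 and 0.143 to 0.606 and 1.29, in inhibitory-like neurons from 0.247 and 0.190 to 0.646 and 1.61, and in astrocyte-like cells from 0.127 and 0.297 to 1.49 and 2.40. The OPC-like ratio was 0.0968, 0.206, 0.676 and 2.35, so that adult OPC-like and astrocyte-like cells overlap in their intervals, 1.78 to 3.13 and 2.11 to 2.74. The adult ratio was lowest in L6 CT-like, 0.898 (0.791 to 1.02), and endothelial-like cells, 0.905 (0.759 to 1.08). Of 9 classes with at least 50 cells at both ages, 8 had a higher ratio in adult than at P4 with intervals that do not overlap. The microglia-like ratio at P4, 0.444 (0.100 to 1.59), rested on 4 and 9 UMIs and overlaps the adult one, 1.08 (0.759 to 1.53). With 1 library per age the difference between ages cannot be told apart from a difference in the hour of collection.

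Over 43 sums of a class in a library, with log2 of CPM + 5 and 8600 genes ranked, the gene most like Dbp was Nr1d1 (Pearson r 0.91), then Nr1d2 (0.89), Dnajb9 (0.87), Ak4 (0.86) and Itm2c (0.85). Per3 followed Dbp with r 0.73, Per1 with 0.67 and Per2 with 0.62, while Arntl reached 0.35 and Cry1 -0.32. Most like Arntl were Mapk4 (0.80), Rorb (0.73), Mras (0.71), Lyrm4 (0.70) and Snx11 (0.69), none of them a member. The sums share libraries and depth, and the values are a description with no test.

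**Figure D5:**
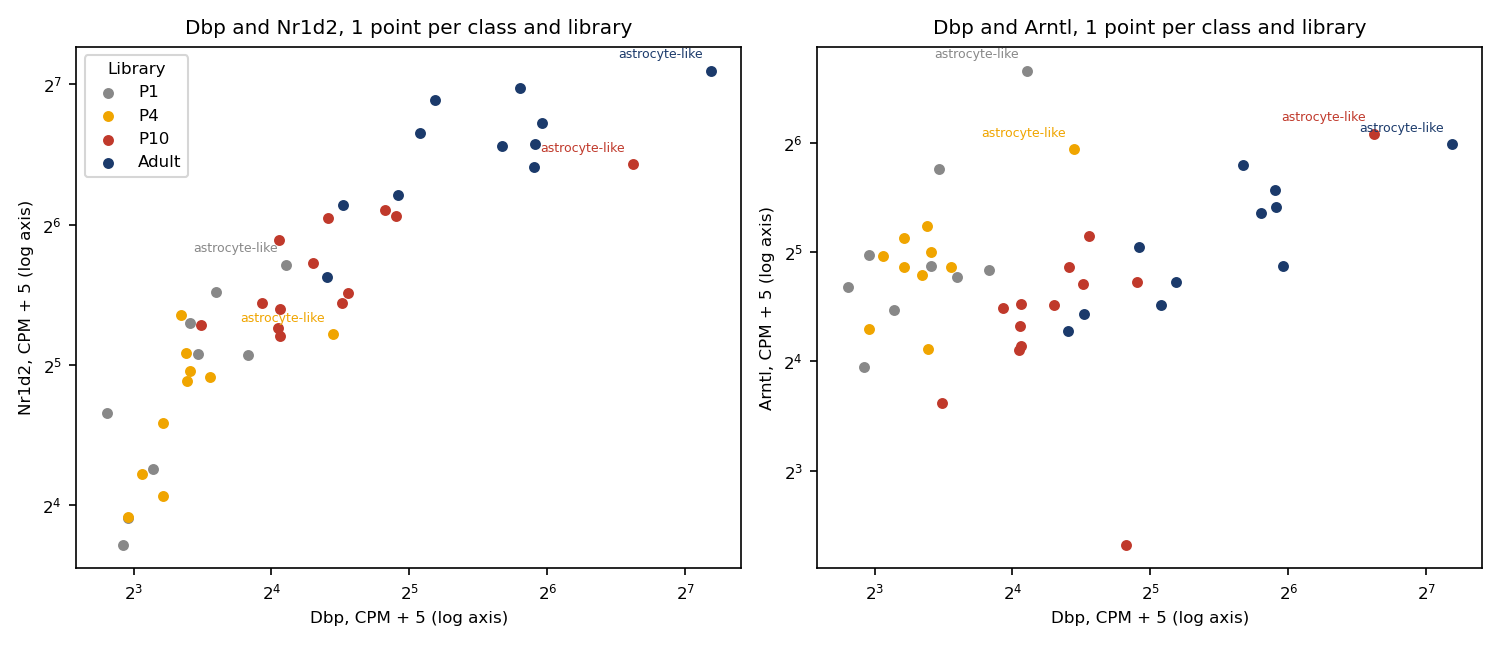
Dbp against Nr1d2 and Dbp against Arntl, each axis CPM + 5 on a log scale, 1 point per sum of a class in a library, coloured by age. Dbp and Nr1d2 are close to 1 curve (r 0.89) and Dbp and Arntl spread widely (r 0.35), and in each library the astrocyte-like sum is highest for Dbp and for Arntl.

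Of 14 other genes of the clock loops, 13 had enough UMIs in IT-like cells, 8 were at least 2-fold higher in adult than at P4 and 1 was lower, with a median log2 ratio of 2.30. Hlf, a PAR bZIP factor like Dbp, went from 16.4 to 567 CPM in IT-like and from 89.6 to 602 in astrocyte-like cells. Nr1d1, which encodes REV-ERB alpha, was at 8.98, 16.0, 174 and 379 CPM in astrocyte-like cells in order of age. Bhlhe41, a repressor at E-boxes, went from 1.89 to 19.3 CPM in IT-like cells, and the kinase Wee1 from 3.42 to 33.7. The 1 lower gene was Arntl2, a relative of Arntl, with 5.74 CPM at P4 and 2.40 in adult. Of all genes in IT-like cells, 19.4% were that much higher and 21.0% lower. The numbers at least 2-fold higher and lower were 8 and 2 of 13 in inhibitory-like cells, beside 15.5% and 19.4% of all genes. They were 8 and 2 of 12 in astrocyte-like cells, beside 11.2% and 18.7%, and 7 and 2 of 11 in OPC-like cells, beside 11.1% and 9.71%.

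The kinases, phosphatases and ubiquitin ligases that act on clock proteins differed less. Over 16 in IT-like cells, the median log2 ratio of adult over P4 was -0.20. The 1 gene at least 2-fold lower, beside 21.0% of all genes, was Csnk1e, a kinase of PER proteins, which went from 486 to 175 CPM. In astrocyte-like cells 0 of 15 were at least 2-fold higher, beside 11.2% of all genes, and 2 were lower, near the 18.7% of all genes. Csnk1e was at 306 CPM at P4 and 92.9 in adult.

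Genes that report signals known to act on Per1 and Per2 differed between libraries as well. The summed level of 12 immediate early genes, transcripts induced by activity, was 38.7 CPM, 130, 793 and 1434 in order of age in IT-like cells, and 11 of the 12 were at least 2-fold higher in adult than at P4, beside 19.4% of all genes. Egr1, among them, went from 25 to 629.6 CPM. In astrocyte-like cells the sum was 54.9, 108, 179 and 322. These cells also carried glutamatergic markers, as given above, and the part of neuronal RNA in this sum was not tested. The sum of 8 glucocorticoid-responsive genes in astrocyte-like cells was 226, 254, 788 and 514 CPM, highest at P10 as Per1 was there, but the members differed. From P4 to adult 2 of the 8 were at least 2-fold higher, beside 11.2% of all genes, and 2 lower, beside 18.7%. Klf9 was at 73.6, 380.5 and 220.2 CPM at P4, P10 and in adult, while Tsc22d3 was highest in adult, with 20.7, 65.0 and 93.9 CPM, and Fkbp5 highest of these 3 ages at P4, with 19.1, 8.48 and 6.33 CPM. In IT-like cells that sum was 258, 240.1, 379 and 387, and 3 of its 8 genes were at least 2-fold higher in adult and 2 lower, beside 19.4% and 21.0% of all genes, so that the lower count is near the share of all genes. The part of activity, hormone or handling in the levels of Per1 and Per2 was not tested.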

How the data were processed

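Cells of mouse prefrontal cortex at P1, P4, P10 and adult were analysed as 4 libraries, 1 per age. Per the file headers and methods, the authors counted 3′ reads per gene and cell with the BD Rhapsody whole transcriptome pipeline (GRCm38, GENCODE vM19), and the deposited values are raw UMI counts, 200198548 to 340724049 per library. The headers name another pipeline version for P1 than for the other 3 files, while the methods name 1 version for all. The submitters' doublet calling, Harmony integration and manual removal of cells were not repeated.

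Barcodes with fewer than 1000 UMIs or 1000 genes, or over 15% mitochondrial UMIs, were removed. Each library was clustered on its own (scanpy 1.11.5, 2000 variable genes without the clock genes and gene lists used here, 30 principal components, 20 neighbours, Leiden resolution 0.5, leidenalg 0.10.2, Python 3.11.15). Clusters were named from marker lists, with thresholds set after the clusters had been seen, and X-like classes of at least 50 cells are given. Scrublet, with an expected doublet rate of 0.06, marked 613, 1842, 1115 and 1121 cells at P1, P4, P10 and in adult, which were kept in the main values. UMIs were summed per class and given as CPM with exact 95% Poisson intervals (scipy 1.17.1). Log2 ratios have conditional binomial intervals. These cover counting error only, and no p-value was computed because no library has a replicate. A gene counted as at least 2-fold apart needed 50 UMIs in both sums together. The interval code was checked on simulated independent Poisson counts. These hold no variation between cells, mice or libraries, so that check concerns counting error only.

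All 10 clock genes are named. Of the other lists, genes were named among the 3 with the largest fold in either direction, with Arntl2 added after its values were seen, and 1 gene of these lists is not reported here. For likeness, genes with a mean of at least 20 CPM were ranked. The members and lists were chosen with earlier results of these data known. Alternatives were clusters at resolution 1.0, removal of marked doublets, a stricter cell filter, CPM over all UMIs, the mean of the CPM of single cells, and scaling by the median of ratios. A further one, unnamed glutamatergic clusters counted as IT-like, was chosen after seeing the data.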

Additional observations from a re-analysis of the deposited data

Results flagged for a closer look

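Several clock genes had age ratios of opposite sign in different classes, each with an interval clear of 0. The difference between the classes was not tested, and each pair shows the most extreme class on either side. The values here are log2 ratios of CPM.

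For Arntl, P10 over P4 was 0.30 in inhibitory-like and -0.68 in L5 NP-like cells. For Npas2, it was 1.66 in IT-like and -0.40 in L6 CT-like cells, and adult over P4 was 2.18 in astrocyte-like and -0.30 in L6 CT-like cells. For Per2, P10 over P4 was 1.47 in OPC-like and -0.59 in inhibitory-like cells. For Cry2, P10 over P4 was 0.96 in astrocyte-like and -1.09 in microglia-like cells, and adult over P4 was 1.52 and -1.09 in the same classes. Without marked doublets, microglia-like Cry2 was 24.0 CPM (10.4 to 47.3) at P4, overlapping 18.1 (13.4 to 23.9) at P10 and 18.7 (14.7 to 23.5) in adult. For Clock, adult over P10 was 1.05 in L6 CT-like and -0.43 in astrocyte-like cells. For Per1, it was 0.77 in L5 NP-like and -0.91 in astrocyte-like cells. For Per3, it was 2.01 in L5 NP-like and -0.67 in oligodendrocyte-like cells.

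Outside the clock genes, the 4 Y-linked genes summed to 120.5 CPM (119 to 122) in the P1 library, although the methods describe female mice only.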

How the results depend on the processing

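Of 80 log2 ratios of clock genes, 72 had an interval clear of 0, and 502 of the 504 values recomputed for these under the alternatives kept their sign. The 2 exceptions were Cry1 in astrocyte-like over IT-like cells at P4, -0.0711 at resolution 1.0 and -0.121 with unnamed glutamatergic clusters counted as IT-like. The median ratio of adult over P4 in IT-like cells, 1.55, was 1.40 at resolution 1.0, 1.71 with the median of ratios and 1.37 with unnamed glutamatergic clusters counted as IT-like. The median of astrocyte-like over IT-like at P4 was 0.743, and 0.997 at resolution 1.0. The number of clock genes at least 2-fold higher in that comparison went from 3 to 5, and the number lower from 0 to 1, at resolution 1.0, without marked doublets and with the mean of single cells. The number lower was also 1 with the stricter filter and with unnamed glutamatergic clusters counted as IT-like, where it was 1 at P1 too. With the median of ratios the number higher went from 3 to 5 in inhibitory-like cells, adult over P4, and from 4 to 2 in astrocyte-like over IT-like cells at P10. The causes were not tested. No paired analysis was possible because each age has 1 library only. With 1 library per age, differences between ages cannot be told apart from differences between libraries, mice or the hour of dissection.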
